A study of Mus musculus with 8 samples.

Results

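Supporting cells (SCs) of the mouse organ of Corti that had received no tamoxifen were compared between postnatal day 33 and postnatal day 12. The comparison used 223 of the 2844 cells of 3 uninduced single-cell RNA-seq libraries that passed limits on detected genes and mitochondrial transcripts, with 77 and 58 cells from the 2 Coch P12 libraries and 88 cells from the 1 Coch P33 library. The whole series held 6023 such cells in 8 libraries. A cell was taken as a member when at least 3 of the 7 genes Rbp7, Cep41, Fabp3, Ceacam16, Tectb, Gdf6 and Parm1 were detected, when it held 0 UMIs of the hair cell (HC) factor gene Pou4f3 and of the leukocyte gene Ptprc, and when it held at most 2 UMIs of Ocm, the oncomodulin gene of outer HCs. A unique molecular identifier (UMI) tags 1 captured transcript. The 7 genes were chosen by their levels in these same data, so their own levels describe the selection and are no finding. Coch names the cochlear preparation in these group names and is not the gene Coch.

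The study asked how SCs are converted into HCs by Atoh1, and the 3 uninduced libraries are its unconverted reference. All animals, uninduced ones included, carried an inducible Cre driven from Fgfr3 (Fgfr3iCre+), the Cre-dependent transgene Atoh1-HA+, the reporter Chrna9-GFP+ and the tdTomato reporter Rosa26-CAG-loxP-stop-loxP-tdTomato+. Fgfr3 drives this Cre in Deiters' and pillar SCs. Without tamoxifen, which releases the Cre, the Coch P12 and Coch P33 groups differed in age alone by their labels. The 5 other libraries came from animals given tamoxifen at P12 to P13 and collected at P26 or P33, and are called induced here. The number of animals behind each library was not given in the sources used here. Coch P33 had 1 library, so no test between the ages was possible and no p-value is given. Each value comes from summed UMIs of a library, as UMIs of a gene per 1000000 UMIs of the summed cells (counts per 1000000, CPM), and intervals are exact 95% Poisson intervals, which cover counting error only and neither animal nor preparation.

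Deiters' and pillar cells hold the HCs upright and stiffen the organ of Corti with dense bundles of microtubules and actin. They also couple through gap junctions, clear potassium and, earlier in life, help to secrete the tectorial membrane, an apical matrix of collagens and tectorin-type glycoproteins that lies over the HCs. Mouse hearing starts at about the age of the younger group, and the following weeks bring the final maturation of these cells.

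The member cells held 1077051, 1455638 and 1958286 UMIs in Coch P12 replicate 1, Coch P12 replicate 2 and Coch P33, with medians of 13636, 19034 and 17697 UMIs per cell. Median mitochondrial shares were 7.41%, 5.85% and 6.06%. The members were 5.57%, 6.58% and 15.1% of the cells within limits. With Ceacam16 left out of the rule, 68, 50 and 49 cells still met it, of 77, 58 and 88 members. The other members passed only by their Ceacam16 UMIs. No 2 of the 3 libraries shared more than 3 cell barcodes, and none of the shared barcodes was a member. Values of 3 libraries are given below in this order throughout, Coch P12 replicate 1, Coch P12 replicate 2 and then Coch P33.

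The members were not a uniform set of SCs. Defining genes split them into neuron-marked cells (at least 4 of 6 neuron markers detected), Fabp3-rich cells (Fabp3 of at least 500 CPM, Epyc under 500 CPM), and cells rich in Epyc, in Dcn or Otor, in Gjb2 (each at least 1000 CPM) or in Vmo1 (at least 2000 CPM). These subsets were set after their values had been seen. Fabp3-rich cells numbered 26, 7 and 24, Epyc-rich cells 24, 11 and 18, and Gjb2-rich cells 19, 19 and 5. Cells rich in the stromal genes Dcn or Otor numbered 2, 9 and 12, Vmo1-rich cells 0, 1 and 6, and 3, 8 and 7 cells met none of these limits.

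Neuron-marked cells numbered 3, 3 and 16 and gave 7.83%, 10.5% and 30.5% of the member UMIs, with median depths of 29222, 49886 and 38075 UMIs per cell. They held little of the SC marker S100a1. This gene of a calcium-binding protein abundant in SCs was at 130.4, 287 and 900.1 CPM in them and at 21870, 14879 and 27288 CPM in Fabp3-rich cells. In Coch P33 Ceacam16 was 1 of the genes by which they passed the rule, as it was detected in 0%, 0% and 100% of them. Ceacam16 was also detected in 1.46%, 5.71% and 31.0% of the cells outside the rule, and in 44.4% of 27 macrophage-marked Coch P33 cells with a median depth of 6654 UMIs, against 0.685% of 146 and 8.22% of 73 such cells in Coch P12. A Ceacam16 UMI in a Coch P33 cell therefore selected cells of several kinds, and the label of SCs does not hold for all members.

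**Figure D1:**
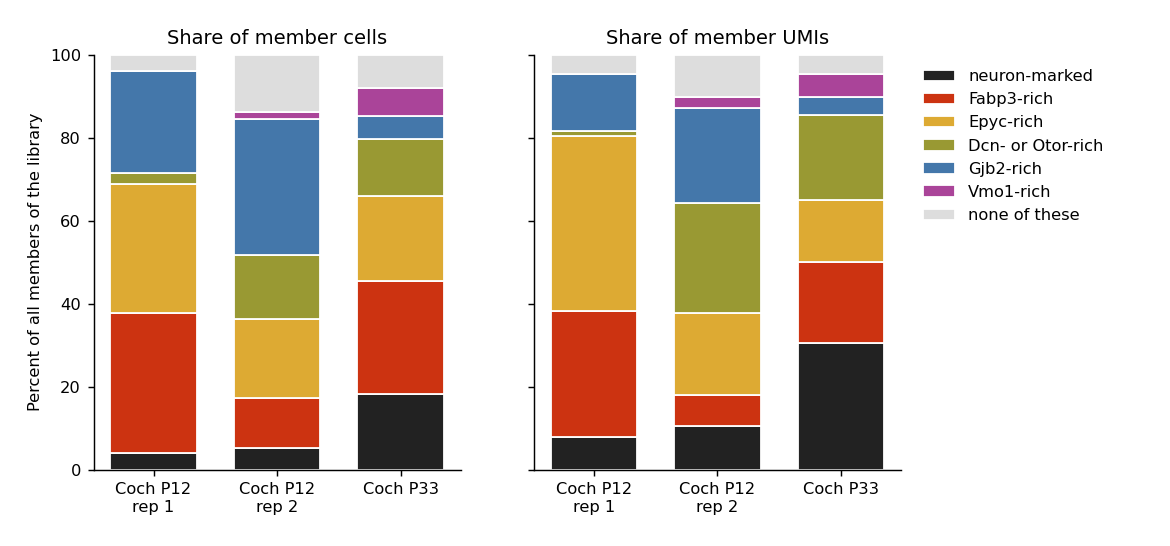
Stacked bars give the percent of member cells (left) and of member UMIs (right) in each subset, for the 2 Coch P12 libraries and Coch P33. Neuron-marked cells make up 30.5% of member UMIs in Coch P33, against 7.83% and 10.5% in Coch P12, and Gjb2-rich cells 4.32% against 13.8% and 23%.

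The Fabp3-rich cells carried SC markers that the rule had not used. All 11 were detected in each library, with summed levels of 24577, 18539 and 29935 CPM. Most of each sum was S100a1, which was higher in Epyc-rich cells, at 23047, 24487 and 36079 CPM. Slc1a3 was at 9.18, 27.5 and 34.1 CPM, against 790, 718 and 980 CPM in Gjb2-rich cells. Prox1 was at 73.4, 9.17 and 28.9 CPM, against 190, 209 and 149 CPM in neuron-marked cells. These 3 markers did not set the subset apart from the other members. Fgfr3, the receptor gene whose promoter drives the Cre, was at 147, 385 and 296 CPM against 7.19, 5.39 and 5.12 CPM in cells outside the rule. None of 6 neuron markers was detected in Coch P12 replicate 1, 1 was in replicate 2 and 4 were in Coch P33, with a sum of 68.2 CPM. Of 7 macrophage markers 5, 5 and 7 were detected, with sums of 30.6, 174 and 81.3 CPM. Hair cell markers summed to 144, 128 and 278 CPM, with Slc26a5, Slc17a8, Gfi1, Chrna9, Chrna10, Otof and Strc at 0 in all 3 libraries. Stromal markers summed to 1474, 294 and 291 CPM, Schwann cell markers to 33.6, 1440 and 118 CPM, and hemoglobin and Alas2 to 514, 6155 and 9322 CPM. The part of these other cell types in the results below was not tested except where a value is given.

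The Fabp3-rich cells of the 3 libraries differed in 2 genes of the rule. Ceacam16 reached 1000 CPM in 4, 4 and 24 of them, and Tectb in 18, 0 and 3. Among members that were not neuron-marked, 9, 1 and 5 lay in the band from the limit of Fabp3 to double it. The lowest Fabp3 inside the subset was 556, 526 and 536 CPM. The highest Fabp3 under the limit was 497, 401 and 446 CPM. A further 0, 0 and 6 of these members reached the limit of Fabp3 and were left out by the limit on Epyc. At the threshold of the rule itself, 32, 23 and 44 members had exactly 3 of the 7 genes, and 57, 63 and 74 further cells met the other limits with 2 genes.

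A gene was called higher or lower at P33 when its CPM lay at least 2-fold beyond both Coch P12 libraries and its interval was apart from both of theirs, among genes with at least 20 UMIs over the 3 libraries. Over all members 548 of 11419 genes were higher (4.8%) and 324 lower (2.84%). The 2 Coch P12 libraries differed from each other at the same fold in 498 genes higher in replicate 1 (4.36%) and 717 higher in replicate 2 (6.28%), a rule with only 1 comparison to pass. Set against 1 Coch P12 library alone, Coch P33 had 737 genes higher and 641 lower than replicate 2, and 1325 higher and 1125 lower than replicate 1. Replicate 2 lay nearer to Coch P33 than replicate 1 did by these counts.

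Leaving out the 22 neuron-marked cells changed the higher calls most. In the remaining cells 189 of 10438 genes were higher (1.81%) and 306 lower (2.93%), with 511 (4.9%) and 726 (6.96%) between the Coch P12 libraries. Of the 548 higher genes 124 were called again, and of the 324 lower genes 211. In Fabp3-rich cells alone 65 of 4757 genes were higher (1.37%) and 113 lower (2.38%), with 120 (2.52%) and 143 (3.01%) between the Coch P12 libraries. That split depended on the scaling, and was 81 higher and 88 lower with median-of-ratios scaling. In the cells outside the rule 462 of 14369 genes were higher (3.22%) and 599 lower (4.17%). The median log2 ratio of all genes, on log2(CPM + 1), was −0.06 in all members, −0.22 without neuron-marked cells, −0.14 in Fabp3-rich cells and −0.28 in the cells outside the rule, and the medians of the gene groups below are to be read beside these.

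Fibrillar and fibril-associated collagen genes were lower at P33 over all members, without the neuron-marked cells and in the Fabp3-rich cells. These collagens are shared by cartilage and the tectorial membrane. Col9a1, which encodes a chain of type IX collagen, was at 391 CPM in Coch P12 replicate 1, 517 CPM in replicate 2 and 8.17 CPM in Coch P33, from 421, 752 and 16 UMIs. Its interval in Coch P33, 4.67 to 13.3 CPM, lay far from those of Coch P12, and the ratio to the nearer library was 47.8 (counting interval 29.1 to 84.5). Col2a1, the type II collagen gene, was at 189, 429 and 10.7 CPM, Col11a1 and Col11a2, both type XI collagen genes, at 149, 209.5 and 10.2 CPM and at 118, 106 and 9.70 CPM. The 2 other type IX genes were lower by less, with Col9a2 at 252, 346 and 49.5 CPM and Col9a3 at 249.8, 243 and 33.2 CPM. In each of these genes both Coch P12 libraries stood above Coch P33 with no overlap of intervals.

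Of 25 collagen genes compared over all members, 12 were lower (48%, beside 2.84% of all genes), none was higher and 13 were not called, with a median log2 ratio of −2.15. Without the neuron-marked cells 9 of 23 were lower (39.1%, beside 2.93% of all genes). There 1, Col23a1, was higher (4.35%, beside 1.81%). Col1a2, 1 of the 12, was not called without the neuron-marked cells, without the top cell or with at least 4 of the 7 genes of the rule. Of 12 tectorial membrane and apical matrix genes compared over all members, a list that shares 6 collagens with the collagen list, 8 were lower (66.7%) and none higher, with a median of −3.13. The other 2 lower genes were Tecta, the alpha-tectorin gene, at 7.43, 13.7 and 0 CPM, from 8, 20 and 0 UMIs, whose ratio to the nearer library had a lower counting limit of 3.10, and Otol1, which encodes the collagen-like protein otolin, at 47.4, 15.8 and 2.04 CPM. Tecta was not called with at least 4 of the 7 genes of the rule, with a rule without Ceacam16 or with at least 50 UMIs. Neither Tecta nor Otol1 was called in Fabp3-rich cells. The otogelin genes were not called: Otog stood at 313, 128 and 91.4 CPM and Otogl at 86.3, 5.50 and 10.7 CPM, so that for both Coch P33 lay within 2-fold of replicate 2. Secreted matrix-binding proteins were lower as well, with Wisp1 at 228, 252 and 22.5 CPM, Chadl at 100.3, 97.6 and 14.3 CPM and Sparc, the osteonectin gene, at 10444, 5767 and 1094 CPM.

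The collagen difference was present within the Fabp3-rich cells. There Col9a1 was at 453 CPM (interval 383 to 532) and 394 CPM (285 to 531) in Coch P12 and at 5.25 CPM (0.635 to 19.0) in Coch P33, and it was detected in 92.3%, 100% and 8.33% of the cells. The Coch P33 value rests on 2 UMIs, and the ratio to the nearer Coch P12 library was 75.2 (19.6 to 641). Col11a2 was at 180.5, 82.6 and 5.25 CPM, from 59, 9 and 2 UMIs, with a nearer ratio of 15.7 (3.26 to 150). Col9a2 was at 428, 440.3 and 55.1 CPM, with closely placed Coch P12 libraries, and was 7.77-fold lower than the nearer of them. Col9a3 was at 376, 156 and 39.4 CPM and Col2a1 at 58.1, 45.9 and 2.62 CPM, the latter from 19, 5 and 1 UMIs. Of 8 collagen genes compared in these cells 5 were lower (62.5%, beside 2.38% of all genes) and none higher, the same 5 as on the tectorial list, where 8 genes were also compared.

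Among the other matrix genes of these cells Chadl, a chondroadherin-like gene, was at 159 and 101 CPM in Coch P12 and had 0 UMIs in Coch P33, from 52, 11 and 0 UMIs, and its ratio to the nearer library had a lower counting limit of 8.78. Sparc was at 19592, 15071 and 3857 CPM and was detected in at least 95.8% of the cells of each library. When each gene lost the cell with the most UMIs in each library, Chadl, Col2a1 and Col9a3 were no longer called in Fabp3-rich cells. Col2a1 also lost its call with median-of-ratios scaling, with totals without mitochondrial, ribosomal protein and hemoglobin genes, and with at least 50 UMIs. With at least 1000 CPM of Fabp3 neither Col2a1 nor Col9a3 was called, and Col9a3 was not called at 4-fold. With at least 1000 CPM of Ceacam16 neither Chadl nor Col2a1 was called. When only cells with at least 1000 CPM of Ceacam16 were kept, which are 4, 4 and 24 cells, Col9a1 stayed at 402, 468 and 5.25 CPM and Col9a2 at 296, 431 and 55.1 CPM, both called, while Col11a2 had too few UMIs to be compared.

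Col9a1 was also low at P33 in other subsets and outside the members. It was at 455, 1479 and 10.2 CPM in Epyc-rich cells, at 297, 194 and 11.8 CPM in Gjb2-rich cells, at 389, 492 and 7.47 CPM in Dcn- or Otor-rich cells, at 130.4, 26.1 and 1.68 CPM in neuron-marked cells, and at 392, 493 and 19.6 CPM in cells outside the rule. In Coch P33 these values rest on 3, 1, 3 and 1 UMIs in the 4 subsets, in the order given, and the Dcn- or Otor-rich subset of replicate 1 held 2 cells. Of 36 collagen genes compared outside the rule 22 were lower (61.1%, beside 4.17% of all genes there) and none higher. The collagen difference was thus seen in members and in the remaining cells of the same preparations, and the part that free RNA shared by the droplets of a preparation had in the members' levels was not tested.

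**Figure D2:**
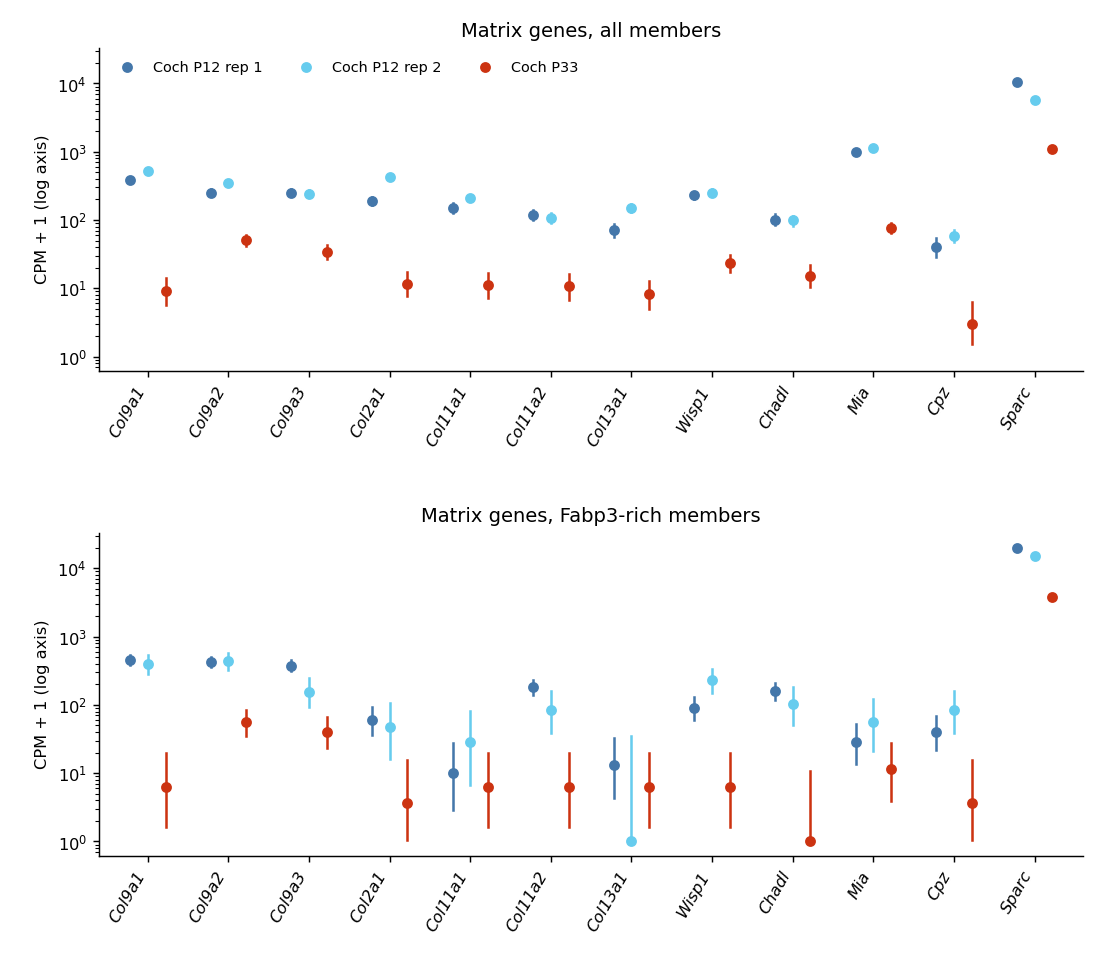
Points give CPM + 1 on a log axis for 12 matrix genes in the 2 Coch P12 libraries (blue) and Coch P33 (red), over all members (top) and Fabp3-rich members (bottom), and bars are exact 95% Poisson intervals. Coch P33 lies below both Coch P12 libraries in all 12 genes at the top, while at the bottom Col11a1, Col13a1 and Mia hold too few UMIs in Fabp3-rich cells to be compared.

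The promoters of Col9a1, Col9a2 and Col11a2, 3 of the 5 collagen genes lower in Fabp3-rich cells, are printed to show where these genes that were lower together start, and were chosen after their values had been seen. The windows run from 250 bases before to 50 after each start that RefSeq lists on GRCm38.p6, all on the plus strand, and RefSeq lists 2 starts for Col9a1, at chr1:24177360-24177659 and chr1:24194953-24195252. Col9a2 lies at chr4:121039316-121039615 and Col11a2 at chr17:34038888-34039187. Capitals mark a GC box (GGGCGG or its reverse complement CCGCCC) or a TATA box (TATAAA or TTTATA), searched on both strands.
Col9a1, first start: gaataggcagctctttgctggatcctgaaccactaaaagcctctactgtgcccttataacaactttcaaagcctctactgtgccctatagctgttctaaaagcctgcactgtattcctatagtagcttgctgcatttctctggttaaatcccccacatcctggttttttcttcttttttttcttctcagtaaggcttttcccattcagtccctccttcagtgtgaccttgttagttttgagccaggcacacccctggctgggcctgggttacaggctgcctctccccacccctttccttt
Col9a1, second start: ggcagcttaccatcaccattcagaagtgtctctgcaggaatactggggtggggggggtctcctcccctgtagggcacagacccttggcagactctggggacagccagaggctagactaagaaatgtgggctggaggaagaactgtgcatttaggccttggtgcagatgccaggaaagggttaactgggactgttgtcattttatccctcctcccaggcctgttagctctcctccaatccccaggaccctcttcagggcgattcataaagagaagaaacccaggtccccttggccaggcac
Col9a2: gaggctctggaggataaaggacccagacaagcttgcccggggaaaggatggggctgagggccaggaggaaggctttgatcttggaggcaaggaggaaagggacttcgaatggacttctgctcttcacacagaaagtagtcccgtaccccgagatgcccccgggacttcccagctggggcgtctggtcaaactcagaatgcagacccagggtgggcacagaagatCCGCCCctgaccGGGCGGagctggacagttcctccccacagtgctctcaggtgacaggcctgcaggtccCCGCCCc
Col11a2: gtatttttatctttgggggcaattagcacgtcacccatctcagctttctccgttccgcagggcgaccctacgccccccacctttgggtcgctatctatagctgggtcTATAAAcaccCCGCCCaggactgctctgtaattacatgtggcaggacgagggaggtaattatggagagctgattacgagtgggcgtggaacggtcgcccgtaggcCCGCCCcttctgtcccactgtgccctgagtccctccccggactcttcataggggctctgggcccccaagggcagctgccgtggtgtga
Col9a2 held 3 GC boxes and Col11a2 2 GC boxes and 1 TATA box, and neither window of Col9a1 held these letters. A GC box was found in 35.7% and a TATA box in 13.6% of all 32851 promoter windows of this length, so that these matches are a description only. Counts from the 3′ end of transcripts do not tell the 2 starts of Col9a1 apart.

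Several of the genes with the largest differences over all members had almost no transcripts in Fabp3-rich cells. Klk8, which encodes the serine protease neuropsin, was at 80.8, 133 and 0.511 CPM, from 87, 193 and 1 UMIs, with a ratio to the nearer library of 158 (27.7 to 6319). Ano1, a calcium-activated chloride channel gene, was at 159, 169.7 and 1.53 CPM, with a nearer ratio of 104 (34.9 to 508). Both genes had Coch P12 values within 2-fold of each other and almost no UMIs at P33. Fam25c was at 253, 511 and 3.06 CPM and Tmprss9, a transmembrane serine protease gene, at 109.6, 133 and 1.53 CPM. Rsph1, a radial spoke gene of motile cilia, Cpa6, a carboxypeptidase gene, Plet1 and Mia were lower too, at 2.55, 3.06, 7.66 and 75.6 CPM in Coch P33 against 79.0, 47.4, 79.8 and 988 CPM in the nearer Coch P12 library.

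Among these genes, Ano1, Fam25c and Mia were carried by Gjb2-rich cells, and Tmprss9 and Mia by Epyc-rich cells. In Gjb2-rich cells Ano1 was at 601, 637 and 11.8 CPM, Fam25c at 1154, 2030.1 and 47.2 CPM and Mia at 2659.6, 2742 and 224 CPM. In Epyc-rich cells Tmprss9 was at 255, 542 and 10.2 CPM and Mia at 1439, 1885 and 377 CPM. So the levels within these subsets were also lower in Coch P33, whose Gjb2-rich subset held only 5 cells. In Fabp3-rich cells Klk8 and Cpa6 had 0 UMIs in every library, and Ano1, Fam25c and Tmprss9 at most 2. In the cells outside the rule Klk8 was at 13.8, 20.3 and 2.90 CPM and Ano1 at 21.1, 14.0 and 0.223 CPM, also lower at P33.

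Of 14 genes of tubulins and microtubule proteins compared in Fabp3-rich cells, 4 were lower at P33 (28.6%, beside 2.38% of all genes), none was higher and 10 were not called, with a median log2 ratio of −0.76. Tuba1a, an alpha-tubulin gene, was at 5790.3 CPM in Coch P12 replicate 1, 8613 CPM in replicate 2 and 1878 CPM in Coch P33, 3.08-fold below the nearer library. Tubb4b, a beta-tubulin gene, was at 1242, 4018 and 226 CPM, and its Coch P12 libraries differed by more than 2-fold from each other. Stmn1, the gene of the tubulin-binding protein stathmin, was at 4022, 3587 and 1254 CPM. All cells of the 3 libraries held Tuba1a and Stmn1, so that the difference was one of level. Map4, the gene of a microtubule-associated protein, was at 97.9, 156 and 2.62 CPM, from 32, 17 and 1 UMIs, and lost its call without the top cell of each library.

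The uncalled genes of this list went in both directions. Tubb2a was at 801, 459 and 231 CPM and Tubb5 at 91.8, 82.6 and 110.2 CPM, neither called. Among the cells with at least 1000 CPM of Ceacam16, Tuba1a was at 3319.8, 6484 and 1878 CPM and Stmn1 at 5625, 2190 and 1254 CPM, and neither was called there, while Map4 had too few UMIs to be compared. Tubb4b was called there too. Over all members the same list had 6 genes higher (22.2%, beside 4.8% of all genes) and 1, Tubb4b, lower (3.7%, beside 2.84%) of 27 compared. Without the neuron-marked cells none of 26 was higher and Tubb4b stayed lower (3.85%, beside 2.93% of all genes).

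Other genes lower in Fabp3-rich cells had varied roles. Selm, which encodes a selenoprotein of the endoplasmic reticulum, was at 3921, 6568 and 659 CPM, and Cd9, a tetraspanin gene, at 1664, 2293 and 375 CPM. Both genes were detected in at least 95.8% of the cells of each library. Sapcd2, whose product takes part in spindle orientation, was at 281, 431 and 21.0 CPM, Mansc4 at 563, 495 and 60.3 CPM and Mgll, the monoglyceride lipase gene, at 211, 156 and 18.4 CPM. Igfbp7, an insulin-like growth factor binding protein gene, was at 135, 578 and 10.5 CPM, with Coch P12 libraries more than 2-fold apart. Wscd2 and Ttyh1 had the same UMIs, 23, 7 and 1, and Uchl1, a ubiquitin hydrolase gene, had 37, 21 and 2. Wscd2, Ttyh1 and Uchl1 were not called among the cells with at least 1000 CPM of Ceacam16. Over all members Uchl1 was at 124, 155 and 223 CPM and not called, and it was at 111, 66 and 14.0 CPM and lower without the neuron-marked cells.

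Of 72 nuclear respiratory chain and ATP synthase genes compared in Fabp3-rich cells, 5 were lower (6.94%, beside 2.38% of all genes, namely Atp5b, Atp5f1, Atp5o, Ndufb6 and Ndufs3) and none higher, with a median log2 ratio of −0.22 beside −0.14 for all genes. None of 13 mitochondrially encoded genes was called, with a median of −0.17. Of 17 glutathione and antioxidant genes Gpx2 and Sod1 were higher (11.8%, beside 1.37% of all genes), Gpx8 and Prdx1 were lower (11.8%, beside 2.38%) and 13 were not called. Prdx1, a peroxiredoxin gene, was at 1688, 1348 and 590.3 CPM, and Gpx8, a peroxidase gene of the endoplasmic reticulum, at 171, 220.2 and 47.2 CPM. Neither Prdx1 nor Gpx8 was called among the cells with at least 1000 CPM of Ceacam16.

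Gpx2, which encodes a glutathione peroxidase, was among the genes most raised at P33 in Fabp3-rich cells. It was at 45.9 CPM (25.7 to 75.7) and 18.3 CPM (2.22 to 66.3) in Coch P12 and 756 CPM (671 to 848) in Coch P33, 16.5-fold above the nearer library, and it was detected in 30.8%, 28.6% and 91.7% of the cells. Outside the rule it was at 32.2, 16.3 and 81.5 CPM, also called but lower in level. Sod1, the cytosolic superoxide dismutase gene, was at 91.8, 73.4 and 317 CPM, and was not called among the cells with at least 1000 CPM of Ceacam16. Slc6a6, the taurine transporter gene, was at 64.2, 183 and 769 CPM, against 181, 109.7 and 80.0 CPM outside the rule. For Gpx2 and Slc6a6 the Fabp3-rich cells of Coch P33 stood apart from both Coch P12 libraries and from the other cells of their own library.

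Hes1, a transcriptional repressor gene that Notch signalling turns on, was at 104, 128 and 443 CPM, 3.45-fold above the nearer library. It was the only called gene of 7 Notch genes compared in Fabp3-rich cells (14.3%, beside 1.37% of all genes), and Lfng was not called, at 39.8, 248 and 115 CPM. Vim, the gene of the intermediate filament protein vimentin, was at 538, 266 and 1695 CPM, and Cnn3, an actin-binding calponin gene, at 184, 229 and 596 CPM. Cnn3 and Actn1 were the 2 called genes of 19 actin genes, Actn1 being lower at 48.9, 147 and 5.25 CPM. Each is 5.26% of the list, beside 1.37% of all genes higher and 2.38% lower. The immediate early gene Ier2 was at 116, 174 and 454 CPM. The other 15 of 16 immediate early and heat shock genes were not called (6.25% higher, beside 1.37% of all genes). Neither Actn1 nor Ier2 was called among the cells with at least 1000 CPM of Ceacam16.

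A further group of genes went from a few UMIs in Coch P12 to broad detection in the Fabp3-rich cells of Coch P33. Abi3bp, an extracellular matrix protein gene, had 2, 1 and 61 UMIs, Neat1, a nuclear long noncoding RNA, 2, 2 and 101, Adamts1, a secreted metalloprotease gene, 1, 0 and 69, and Fbln5, a fibulin gene, 1, 0 and 44. In Coch P33 they were in 70.8%, 70.8%, 62.5% and 58.3% of the cells. Over all members Abi3bp was at 59.4, 37.8 and 53.1 CPM and Neat1 at 151, 252 and 119 CPM, neither called, so for both the difference was seen in the Fabp3-rich subset and not in the sum. Klhl14 was at 15.3, 27.5 and 131 CPM, Ablim3 at 6.12, 18.3 and 110.2 CPM, and Insig1, a regulator of sterol synthesis, at 39.8, 36.7 and 194 CPM. Fbln5, Klhl14, Ablim3 and Insig1 were not called among the cells with at least 1000 CPM of Ceacam16. Outside the rule Klhl14 was at 0.780, 0.610 and 1.11 CPM, below its level in the Fabp3-rich cells of each library. Of 77 ribosomal protein genes 4 were higher (5.19%, beside 1.37% of all genes, namely Rpl10, Rpl35, Rpl6l and Rps27), none was lower and the list had a median log2 ratio of 0.44. Rpl10-ps3, which was also called, is a near copy of Rpl10, and reads of the 2 may not be told apart.

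Some genes higher in Fabp3-rich cells were at high levels in other cells of Coch P33. Ptgds, a prostaglandin D synthase gene, was at 12.2, 73.4 and 469.6 CPM and outside the rule at 279, 548 and 3212 CPM. Otos, the otospiralin gene of fibrocytes, was at 0, 45.9 and 247 CPM against 64.6, 399.8 and 549 CPM outside, and Coch, the cochlin gene, at 24.5, 64.2 and 213 CPM against 1473, 1261 and 2072 CPM. S100a8, a neutrophil calprotectin gene, was at 3.06, 9.17 and 110.2 CPM against 143, 245 and 1787 CPM. In each of these 4 genes the level outside the rule in Coch P33 exceeded that of the Fabp3-rich cells. Coch and S100a8 were not called among the cells with at least 1000 CPM of Ceacam16.

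**Figure D3:**
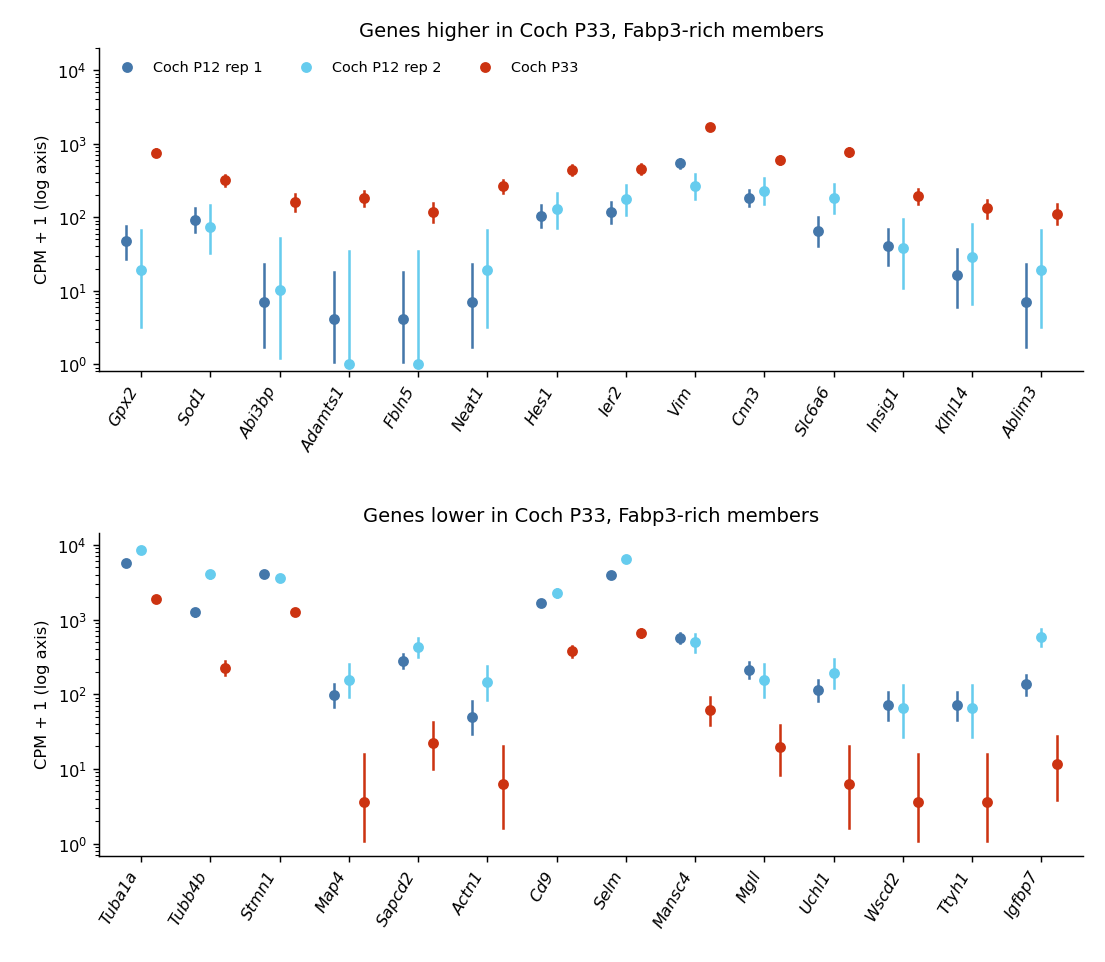
Points give CPM + 1 on a log axis for 14 genes higher (top) and 14 genes lower (bottom) in the Fabp3-rich members of Coch P33 (red), against the 2 Coch P12 libraries (blue), and bars are exact 95% Poisson intervals. Gpx2 and Slc6a6 reach 756 and 769 CPM in Coch P33, and the bars of Coch P12 replicate 2 are wide because it had 7 such cells.

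**Figure D4:**
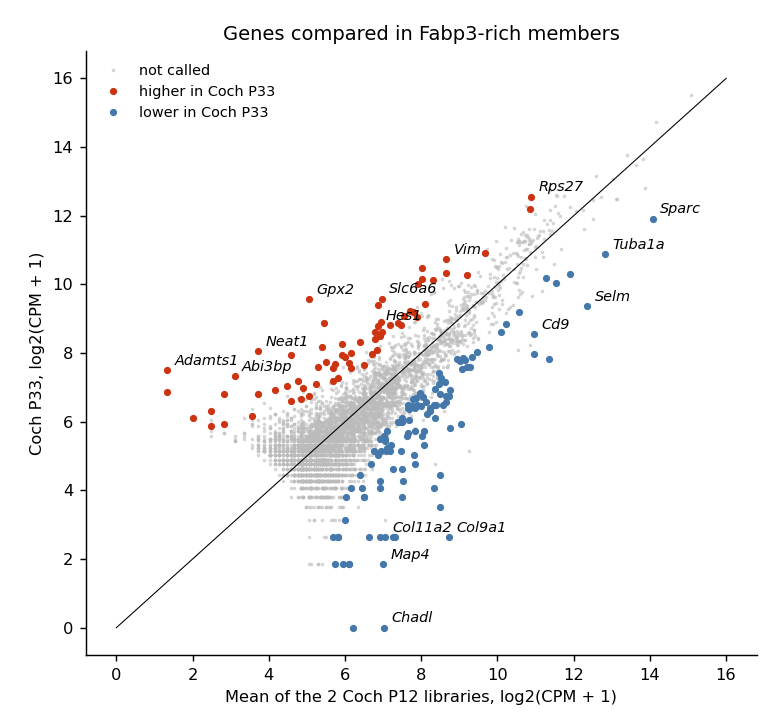
Each point is 1 of 4757 genes compared in Fabp3-rich members, with log2(CPM + 1) of Coch P33 on the y axis against the mean of the 2 Coch P12 libraries on the x axis and the diagonal as equality. The 65 genes called higher (red) and 113 called lower (blue) lie away from the diagonal, and many uncalled genes of low level lie as far from it.

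None of 10 SC markers compared in Fabp3-rich cells was called, with a median log2 ratio of −0.09. Rorb, a nuclear receptor gene, was at 382, 798 and 808 CPM, Sox9 at 97.9, 147 and 131 CPM and Sox2 at 193, 82.6 and 113 CPM, the last 2 being factors that set the SC state. The gap junction genes Gjb2 and Gjb6 were at 297, 449 and 220.4 CPM and at 425, 982 and 887 CPM. For each of these the Coch P33 value lay within 2-fold of at least 1 Coch P12 library. No gene was called among 20 transcription factor genes, 7 FGF genes, 7 Wnt genes, 8 BMP and TGF-beta genes, 4 thyroid hormone genes and 5 cell cycle genes compared in these cells. As 1.37% of all genes were higher and 2.38% lower there, 0 calls in lists of this size are no result about them. Of 15 genes of gap junctions and of potassium and water handling, 1, Aqp11, was lower (6.67%, beside 2.38% of all genes).

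Over all members 2 of 17 Notch genes, Notch3 and Lfng, were lower (11.8%, beside 2.84% of all genes), at 13.9, 15.1 and 1.53 CPM and at 132, 230.1 and 46.5 CPM, and Dner was higher (5.88%, beside 4.8%). With a rule without Ceacam16 neither Notch3 nor Lfng was called, and Lfng was not called with at least 4 of the 7 genes of the rule nor Notch3 with at least 50 UMIs. Of 21 Wnt genes the receptor gene Lgr6, at 78.9, 63.2 and 11.7 CPM, and the inhibitor gene Sfrp1, at 284, 149 and 46.0 CPM, were lower (9.52%, beside 2.84%). Lgr6 was carried by few Fabp3-rich cells, with 4, 0 and 0 UMIs. Of 12 FGF genes none was called. The thyroid hormone receptor gene Thrb, at 46.4, 40.5 and 18.4 CPM, and the hormone-responsive factor gene Klf9, at 165, 249 and 80.2 CPM, were 2 lower genes of 9 on the thyroid list (22.2%, beside 2.84%). Neither was called with at least 4 of the 7 genes of the rule, Klf9 was not called under either other scaling and Thrb was not called with the mean of per-cell CPM. Both were lower outside the rule as well, Klf9 at 363, 266 and 106 CPM. Epcam, an epithelial adhesion gene, was the 1 called gene of 11 SC markers (9.09%, beside 2.84%), at 1182, 749 and 229.8 CPM over all members, and was not called in Fabp3-rich cells, at 939, 926 and 577 CPM. None of 26 actin genes and none of 77 ribosomal protein genes was called over all members.

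A number of epithelial and stromal genes were lower over all members and not called in Fabp3-rich cells. Aldh1a1, a retinaldehyde dehydrogenase gene, was at 173, 209.5 and 34.7 CPM, S100a6, a calcium-binding protein gene, at 353, 627 and 87.8 CPM and Lum, the gene of the matrix proteoglycan lumican, at 819.8, 739.9 and 159.8 CPM. In Fabp3-rich cells the values of S100a6 were 61.2, 0 and 34.1 CPM and those of Lum 829, 27.5 and 102 CPM. Lum thus differed more between the Coch P12 libraries of that subset than between ages. Anxa5, the annexin A5 gene, was at 1318, 1185 and 443 CPM over all members and at 1208, 1569 and 1065 CPM in Fabp3-rich cells. The tight junction gene Cldn3, at 122, 115 and 46.0 CPM, was 1 of 3 lower genes among 10 claudins (30%, beside 2.84% of all genes). Krt8, at 67.8, 58.4 and 22.0 CPM, was the 1 lower gene among 6 keratins (16.7%).

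Of 14 cell cycle genes Mki67, Top2a and Cdkn2d were higher over all members (21.4%, beside 4.8% of all genes), the first 2 of which mark dividing cells. Mki67 was at 1.86, 3.43 and 14.8 CPM and Top2a at 0, 1.37 and 13.3 CPM. In Fabp3-rich cells Top2a had 0 UMIs in every library, and outside the rule it was at 21.7, 17.8 and 32.7 CPM. Of 3 HC markers compared Pvalb, the parvalbumin gene, and Cib2 were higher (66.7%, beside 4.8%). Pvalb went from 276, 495 and 1683 CPM over all members to 3.02, 18.4 and 39.7 CPM without the neuron-marked cells and was called in both. The cells left still held 0, 0 and 8 members with exactly 3 neuron markers.

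Several of the genes highest at P33 over all members were neuronal. Calb2, the calretinin gene, was at 136, 87.2 and 1693 CPM, Snap25, a synaptic vesicle fusion gene, at 176, 239 and 1253 CPM, and the neurofilament gene Nefh at 232, 299.5 and 1029.5 CPM. Of 6 neuron markers 4 were higher (66.7%, beside 4.8% of all genes). Without the neuron-marked cells Calb2 was at 4.03, 13.1 and 50.7 CPM, Snap25 at 0, 3.84 and 30.1 CPM and Nefh at 1.01, 1.54 and 22.8 CPM. All 3 were still called. Members with exactly 3 of the 6 neuron markers, just under the limit, numbered 0, 0 and 8 and stayed among these cells. Their part in these levels was not tested. Snap25 and Nefh chose the cells that were left out, so their drop is a description. Asic3, an acid-sensing channel gene, Mapk12, Cox8b and Lrp11 were not used in that choice, and none of the 4 was called without those cells, where Asic3 and Mapk12 had too few UMIs to be compared. Asic3 went from 1.86, 17.2 and 143 CPM to 0, 0.768 and 4.41 CPM, and Lrp11 from 9.28, 9.62 and 54.6 CPM to 5.04, 4.61 and 16.9 CPM.

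**Figure D5:**
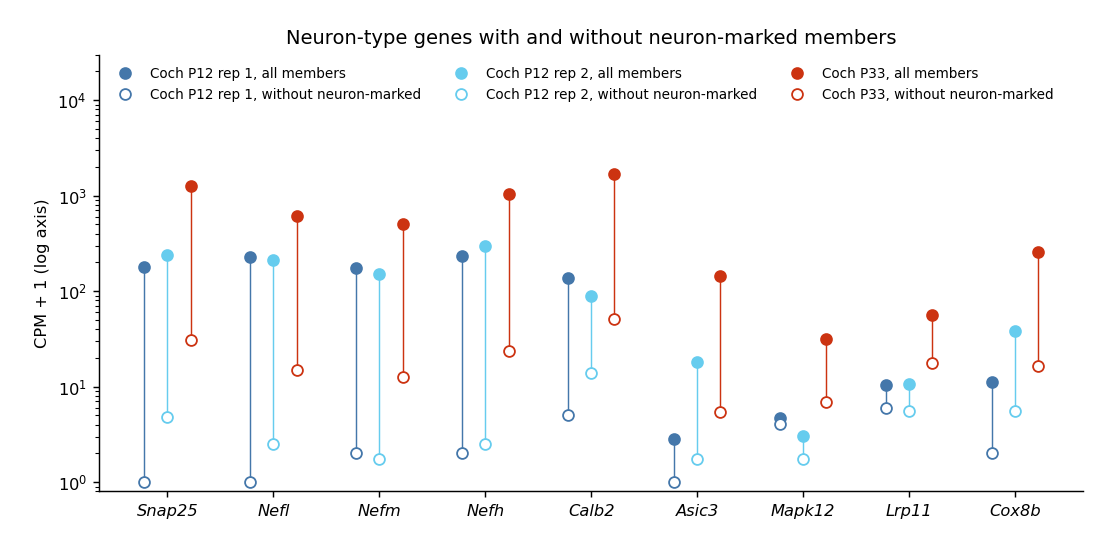
Filled points give CPM + 1 on a log axis over all members and open points without the neuron-marked members, joined by a line for each library, for 9 genes. In Coch P33 (red) Snap25 goes from 1253 to 30.1 CPM, and the open points of all 3 libraries lie below their filled points in each gene.

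Some genes higher over all members are known from blood cells. Hba-a2, a hemoglobin gene of red cells, was at 78.0, 534 and 3490.3 CPM, and 4 of 5 erythroid markers were higher over all members (80%, beside 4.8% of all genes) and none of 5 in Fabp3-rich cells. Outside the rule Hba-a2 was at 138, 5072 and 16345 CPM, in the same order. S100a9, the partner of S100a8 in calprotectin, was at 0, 8.93 and 77.6 CPM in members and 117, 187 and 1217 CPM outside. Ngp, a neutrophil granule gene, and Ccl5, a chemokine gene of T cells, had 1, 4 and 30 UMIs and 0, 0 and 30 UMIs in members, and were at 345 and 226 CPM in the other cells of Coch P33. Ptprc-positive cells had been left out by the rule, and these transcripts were nevertheless counted in members, at levels below those outside.

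Of 15 MHC class I and interferon response genes 4 were higher over all members (26.7%, beside 4.8% of all genes), none was lower and 11 were not called, with a median log2 ratio of 0.93. Ifit1 was at 7.43, 4.12 and 51.6 CPM, Ifit3 at 0, 2.06 and 20.4 CPM, Bst2 at 13.0, 17.2 and 84.8 CPM and H2-D1, an MHC class I gene, at 66.8, 101 and 215 CPM. Neither Ifit3 nor H2-D1 was called with at least 4 of the 7 genes of the rule or with a rule without Ceacam16. Ifit3 was also not called with at least 50 UMIs. Outside the rule 8 of 16 genes of this list were higher (50%, beside 3.22% of all genes there). In Fabp3-rich cells none of 6 was called, with a median of 1.53, and Ifit1 had 0, 0 and 1 UMIs there. The Ifit1 transcripts of Coch P33 lay mostly in its neuron-marked cells, with 51 of 101 UMIs, and in Dcn- or Otor-rich cells, with 26. Spp1, the osteopontin gene, was likewise at 143, 167 and 1072 CPM over all members and at 1802, 1411 and 3235 CPM in neuron-marked cells, while in Fabp3-rich cells it was at 0, 9.17 and 78.7 CPM and also called. The last call was lost with at least 50 UMIs, with the mean of per-cell CPM and with at least 1000 CPM of Ceacam16.

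The levels of some of these genes in the induced libraries are set beside those above with no test. Against Coch P12 the induced libraries differ in both age and induction, which cannot be told apart, and Coch + Tmx P33 differs from Coch P33 in induction alone by the labels. The rule took 28, 24 and 60 cells from Coch + Tmx P26 and 36 and 51 from Coch + Tmx P33, of which 7, 4, 29, 15 and 13 were Fabp3-rich. In these Fabp3-rich cells Gpx2 was at 2565, 946, 1335, 1161 and 2323 CPM, beside 756 CPM in uninduced Coch P33. Col9a1 was at 34.0, 0, 6.81, 9.07 and 32.2 CPM, beside 453 and 394 CPM in Coch P12 and 5.25 CPM in Coch P33. Hes1 was at 352, 741, 320.1, 562 and 856 CPM and Tuba1a at 170.2, 1431, 1709.6, 703 and 1139 CPM. Vim was at 34.0, 741, 1167, 58.9 and 38.6 CPM and Adamts1 at 11.3, 0, 229, 13.6 and 0 CPM. Vim ranged from 34.0 to 1167 CPM among the induced libraries and Adamts1 from 0 to 229 CPM, so that neither had a common level in them. Both were highest in Coch + Tmx P26 replicate 3, and Vim in both Coch + Tmx P33 libraries lay below both Coch P12 libraries. Ceacam16 reached 1000 CPM in 1, 2, 29, 0 and 0 of these Fabp3-rich cells, beside all 24 in Coch P33. The subsets thus differed in makeup, and the part of this in the levels was not tested.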

How the data were processed

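Single-cell libraries of dissociated organs of Corti were made with 10x Chromium Single Cell 3' v2 chemistry and sequenced on an Illumina HiSeq 4000. The authors aligned reads to mm10 with Cell Ranger, whose version is not given in the sources used here, and deposited filtered matrices of UMI counts per gene and barcode, with 27998 genes and nothing normalized. Doublets were not removed beyond the limits of the cell rule.

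From these counts, cells with at least 500 detected genes and under 25% mitochondrial UMIs were kept, the rule on the 7 marker genes was applied, and UMIs were summed per library and divided by the sum to give counts per 1000000 (CPM). Fold limits, exact Poisson intervals and exact binomial intervals of ratios were computed in Python 3.11.15 with numpy 2.4.6, scipy 1.17.1 and pandas 2.3.3, plots with matplotlib 3.10.9. Log2 ratios used a pseudocount of 1 CPM and the mean of the Coch P12 libraries, and a count of 0 was set to 3 UMIs in a fold. The calling script was tested on simulated counts. No test between ages was run, since Coch P33 had 1 library. Files held 0 columns of other series.

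Named genes were the 15 higher and 15 lower called genes with the largest fold against the nearer Coch P12 library, detected in at least 25% of the cells on the higher side and not part of the rule, plus up to 6 called and 3 uncalled genes of each gene list. Other genes were named after their values had been seen, and 1 gene is not reported here. The members, the subsets and the lists were chosen with earlier results of these data known. Alternatives covered scaling, UMI minimum, fold, cell limits, doublet scores from scrublet in scanpy 1.11.5 at 0.8% per 1000 barcodes (1 member of each library scored), and leaving out a library, a cell or a subset. Promoter sequences came from RefSeq on GRCm38.p6.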

Additional observations from a re-analysis of the deposited data

How the results depend on the processing

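No paired analysis was possible because Coch P33 had 1 library. Over all members a 4-fold limit left 136 genes higher and 111 lower. With 1 Coch P12 library left out, higher genes ranged from 737 (without replicate 1) to 1325 (without replicate 2) and lower genes from 641 to 1125. Subsets added after the data had been seen gave 189 higher genes without neuron-marked members, and 65 higher and 113 lower in Fabp3-rich members only. Calls were 62.8% higher as reported and 72.2% higher with totals that left out mitochondrial, ribosomal protein and hemoglobin genes (649 higher, 250 lower). The other settings kept both counts within 1.5-fold, but not always the same genes. With at least 4 of the 7 genes of the rule, 329 of 548 higher and 182 of 324 lower calls were kept. A rule without Ceacam16 kept 412 of these higher and 217 of these lower calls.

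In Fabp3-rich members a 4-fold limit left 16 higher and 41 lower, and leaving out 1 Coch P12 library gave 124 (without replicate 1) to 247 (without replicate 2) higher and 218 to 411 lower. Without the top cell of each gene 72 were lower, and with at least 1000 CPM of Ceacam16 37 were higher and 37 lower. Of the 65 higher and 113 lower calls, 28 and 32 were kept with that Ceacam16 limit, which left 4, 4 and 24 cells. With median-of-ratios scaling 81 were higher and 88 lower.

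Of 1200 values of 75 named genes over all members 5 reversed, 273 moved and 922 stayed the same. A value moved when it differed from the main log2 ratio by more than the standard deviation of the 2 Coch P12 libraries. Genes whose Coch P12 libraries lay far apart were thus less easily counted as moved. Lost calls were counted apart from this split and numbered 127. In Fabp3-rich members only, the log2 ratio of Rsph1 was 1.86 (0, 0 and 1 UMIs), of Plet1 4.28 (0, 0 and 7 UMIs) and of Epyc 1.03, whose level the limit on Epyc sets in that subset. Gpx3 was at −1.25 with at least 4 rule genes and at −0.95 with a rule without Ceacam16. Of 770 values of 55 genes in Fabp3-rich members 0 reversed and 81 moved, and 71, counted apart, lost their call. The cause was not tested. Coch P12 replicate 2 had 7 Fabp3-rich cells, which limits every comparison in that subset.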
